A study of Saccharomyces cerevisiae with 46 samples.

Results

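Yeast cells carrying mCherry reporter plasmids were compared with cells carrying POT1-ccdB, a control plasmid that has no reporter gene, to find which chromosomal genes differed in transcript level. The comparison uses every library of the gene count table, which is 34 of the 46 samples of the series: 32 reporter libraries and 2 POT1-ccdB libraries. The other 12 samples were not analysed here. The 32 reporter libraries are those labelled with the promoter and terminator pairs pTSA1-tTSA1 (10 libraries), pRPS3-tRPS3 (12 libraries) and pPGK1-tRPS3 (10 libraries), called contexts below. In each context 5 terminators were cloned behind mCherry, the modified forms modNNN, modNTN, modNAA and modHTH, which carry short inserts of random sequence (N) or of the motifs named A, H and T, and the unmodified one (WT). Each of the 15 reporter plasmids and POT1-ccdB had 2 libraries, except pRPS3-tRPS3 modNNN, which had 4. All cells had BY4741 as parent strain, a laboratory strain of mating type a in which LEU2, MET17 and URA3 are deleted and HIS3 is altered. All were grown in liquid SC-Ura medium, which lacks uracil, for 4 h at 30 °C and 200 rpm to an OD600 of 0.7. The reporter plasmids are low copy plasmids, and POT1-ccdB is a single plasmid, so whatever sets its 2 libraries apart is seen in 1 construct only. The labels give no day of growth or of library preparation, so the plasmid and any batch of growth or preparation cannot be told apart. The labels do not say whether replicates were separate cultures. The edgeR p-values below measure only the spread between these libraries within a plasmid, and differences between plasmids of a context do not enter that spread.

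Budding yeast holds 2 large groups of genes that move in opposite directions when growth conditions change. General stress genes are switched on by the transcription factors Msn2 and Msn4, which bind the stress response element AGGGG, when nutrients run short or cells are stressed. Ribosome biogenesis genes are expressed most in fast growing cells, and many have the PAC element GATGAG upstream. A further, smaller group is the zinc regulon, in which Zap1 binds the zinc-responsive element (ACCTT and AAGGT around any base) and activates zinc uptake genes when cells lack zinc.

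Library totals ran from 1276603 to 3849179 counts in pTSA1-tTSA1, from 1013603 to 2129339 in pRPS3-tRPS3 and from 1387659 to 2734801 in pPGK1-tRPS3, against 3667925 and 1892144 counts in POT1-ccdB. Levels below are CPM, the counts of a gene scaled to a fixed total of host gene counts after TMM scaling, a correction for differences in composition between libraries. They come from reads of the 3′ end and are compared between libraries, not between genes. MET17 had 0 counts in all 34 libraries and LEU2 had at most 2, as the deletions require. The 4 MATalpha markers summed to 12.7 to 33.1 CPM in the reporter libraries and 26.7 to 26.8 CPM in POT1-ccdB. The 7 MATa markers summed to 2100 to 3300 CPM in the reporter libraries and 3210 to 3530 CPM in POT1-ccdB. On the first principal component of log2 CPM the pTSA1-tTSA1 libraries lay at 17.7 to 32.4, those of pRPS3-tRPS3 at −13.6 to 5.57, those of pPGK1-tRPS3 at −30.7 to −7.63 and those of POT1-ccdB at −13.3 to −9.55. POT1-ccdB lay within the range of pRPS3-tRPS3 on that component and, at −16.7 to −14.1 against −21 to −0.357, on the second component.

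Averaged over the 15 reporter plasmids, 623 of 5142 host genes tested (12.1%) differed from POT1-ccdB at an adjusted p under 0.05, and 240 of them (4.67%) were higher in the reporter libraries and 383 (7.45%) lower. Adjusted p-values here and below come from edgeR's quasi-likelihood test with Benjamini-Hochberg adjustment over all genes tested, and a gene that passes 0.05 is called changed. The 3 contexts were far apart in how much they differed from the control plasmid. In pTSA1-tTSA1, 1855 genes (36.1%) changed, 854 higher and 1001 lower. In pPGK1-tRPS3, 645 genes (12.5%) changed, 220 higher and 425 lower. In pRPS3-tRPS3, 14 genes (0.272%) changed, 2 higher and 12 lower, and 557 genes had an unadjusted p under 0.05. The 3 context comparisons share both POT1-ccdB libraries, so they are not independent of each other. Of the 623 genes, 613 were called in the same direction in pTSA1-tTSA1, 236 in pPGK1-tRPS3 and 13 in pRPS3-tRPS3, and leaving pTSA1-tTSA1 out of the average left 47 called genes. Read more loosely, 558 of the 623 (10.9% of all genes) had the same sign in each context, 231 higher (4.49%) and 327 lower (6.36%). The 623 were chosen by the mean of these contexts against the same POT1-ccdB libraries. A shared sign is thus partly built in and does not show that the contexts changed alike. Without POT1-ccdB replicate 1 the counts were 110 over all reporters, 0 in pRPS3-tRPS3, 111 in pPGK1-tRPS3 and 1028 in pTSA1-tTSA1, and without replicate 2 they were 267, 10, 88 and 1339 in the same order. The contexts were also tested against each other, which does not use POT1-ccdB, and 3622 genes (70.4%) differed between them.

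**Figure D1:**
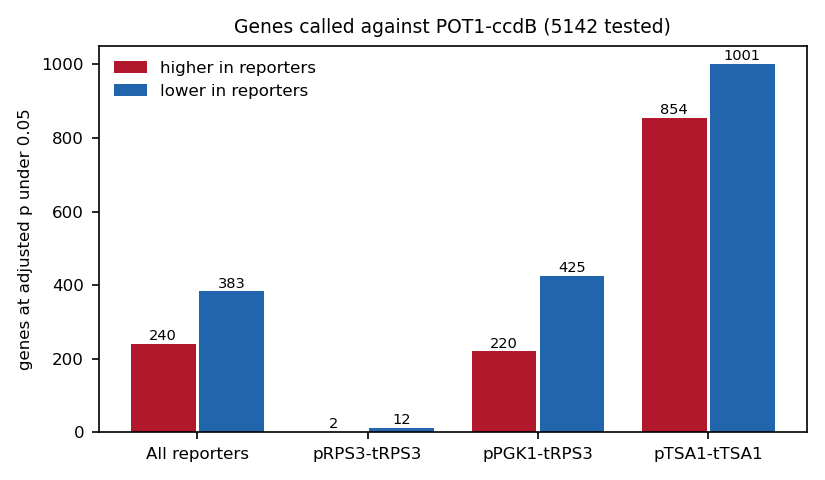
Bars count the host genes called higher and called lower against POT1-ccdB (adjusted p under 0.05, 5142 genes tested) over all reporters and in each context. The bars for pTSA1-tTSA1 reach 854 and 1001 genes, those for pPGK1-tRPS3 220 and 425, and those for pRPS3-tRPS3 2 and 12.

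Of all genes tested, 6 (0.117%) changed in the same direction in each of the 3 contexts, averaged over the plasmids of the context. The arginine methyltransferase gene HMT1 (YBR034C) rose (0.0194% of the genes tested). The other 5 fell (0.0972%): PIR3 (YKL163W) and SPI1 (YER150W), which encode cell wall proteins, RTN2 (YDL204W), a reticulon-like membrane protein, TSA2 (YDR453C), a stress-induced thioredoxin peroxidase, and GPM2 (YDL021W), a homologue of phosphoglycerate mutase. SPI1 and RTN2 are members of the general stress list. TSA2 and GPM2 have paralogues (TSA1, GPM1 and GPM3) whose reads could be confused with theirs where sequences are alike. All 5 genes that fell have AGGGG on either strand within the 500 bases upstream of their start codon (3 matches for SPI1, 2 for TSA2 and 1 each for the others), and HMT1 has none. Of 5082 upstream windows of this length, 34.2% hold the motif. A match of these letters is a description of the sequence and not evidence that a factor binds there. The windows below show 1 match of each gene, written 5′ to 3′ on the strand of the gene in the R64 genome from RefSeq, with the motif in capitals. CCCCT is the same motif on the opposite strand.
SPI1: gactgggggCCCCTatcggggct
PIR3: gcaagttaaAGGGGatcaaacga
RTN2: aggcaatctCCCCTtattgttca
TSA2: ctatatgcgCCCCTctagtttac
GPM2: aagaaaataAGGGGtttcttaaa
They lie at chrV:467988-468010 (+), chrXI:144090-144112 (+), chrIV:94436-94458 (+), chrIV:1365966-1365988 (−) and chrIV:413525-413547 (+), in that order. The distance from motif to start codon is 369, 298, 156, 313 and 415 bases, in the same order.

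RTN2 had 17.4, 26.8 and 35.5 CPM (lowest, median and highest library) in pRPS3-tRPS3, 23.1, 26.5 and 29.0 CPM in pPGK1-tRPS3 and 7.55, 11.3 and 15.2 CPM in pTSA1-tTSA1, against 45.9 and 41.8 CPM in POT1-ccdB. All 32 reporter libraries lay below both POT1-ccdB libraries. The log2 fold change over all reporters was −1.15 (SE 0.12, adjusted p 2.26e-07), and in the contexts it was −0.71 (pRPS3-tRPS3, adjusted p 0.0101), −0.75 (pPGK1-tRPS3, adjusted p 0.000528) and −1.99 (pTSA1-tTSA1, adjusted p 8.13e-12). SPI1 had 184.8, 297 and 522 CPM in pRPS3-tRPS3, 228, 319.6 and 466 CPM in pPGK1-tRPS3 and 64.7, 78.1 and 117 CPM in pTSA1-tTSA1, against 655 and 515 CPM in POT1-ccdB. A single reporter library, of pRPS3-tRPS3 modHTH, reached into the POT1-ccdB range for SPI1. Its log2 fold change was −1.50 over all reporters (SE 0.14, adjusted p 9.17e-08) and −0.84, −0.84 and −2.81 in pRPS3-tRPS3, pPGK1-tRPS3 and pTSA1-tTSA1.

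PIR3 had 43.1, 65.2 and 111 CPM in pRPS3-tRPS3, 24.4, 37.5 and 52.4 CPM in pPGK1-tRPS3 and 8.40, 21.3 and 35.1 CPM in pTSA1-tTSA1, against 132 and 107 CPM in POT1-ccdB. Every pPGK1-tRPS3 and pTSA1-tTSA1 library lay below both POT1-ccdB libraries, and the pRPS3-tRPS3 range overlapped them. With a log2 fold change of −1.66 over all reporters (SE 0.13, adjusted p 2.88e-09), PIR3 fell most of the 6 genes, and it stood at −0.74, −1.70 and −2.54 in pRPS3-tRPS3, pPGK1-tRPS3 and pTSA1-tTSA1. TSA2 had 14.1, 31.6 and 51.6 CPM in pRPS3-tRPS3, 23.6, 29.4 and 45.5 CPM in pPGK1-tRPS3 and 12.2, 15.4 and 21.4 CPM in pTSA1-tTSA1, against 50.7 and 62.7 CPM in POT1-ccdB. Here 1 context overlapped the control plasmid, pRPS3-tRPS3. The change of TSA2 over all reporters was −1.13 (SE 0.14, adjusted p 3.44e-06). GPM2 had 18.5, 29.1 and 40.4 CPM in pRPS3-tRPS3, 26.4, 33.8 and 48.1 CPM in pPGK1-tRPS3 and 9.29, 13.1 and 17.1 CPM in pTSA1-tTSA1, against 47.3 and 57.3 CPM in POT1-ccdB. Overlap was confined to the upper end of pPGK1-tRPS3 for this gene, and its change over all reporters was −1.09 (SE 0.13, adjusted p 2.29e-06).

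HMT1 had 89.7, 125 and 188 CPM in pRPS3-tRPS3, 89.9, 118 and 137 CPM in pPGK1-tRPS3 and 200.7, 227 and 241 CPM in pTSA1-tTSA1, against 90.2 and 77.2 CPM in POT1-ccdB. The pTSA1-tTSA1 libraries stood above all others, and the lowest libraries of the other contexts reached the POT1-ccdB range. The log2 fold change of HMT1 was 0.81 over all reporters (SE 0.11, adjusted p 1.77e-05), with 0.55 in pRPS3-tRPS3 (adjusted p 0.0329), 0.47 in pPGK1-tRPS3 (adjusted p 0.0112) and 1.41 in pTSA1-tTSA1 (adjusted p 7.5e-10). In all 6 genes the contexts differed from each other, with the largest change in pTSA1-tTSA1. Plasmid by plasmid, the 6 kept their sign but not always their call. In pRPS3-tRPS3 all were called in modNNN, all but RTN2 in modNAA, and none in WT, modHTH or modNTN. PIR3 changed by −1.21 in modNNN and by −0.16 in modHTH. In pPGK1-tRPS3, HMT1 and GPM2 were called in WT and modNAA only, and SPI1 and TSA2 were not called in modHTH or modNNN. PIR3 and RTN2 were called in every plasmid of that context. The number of genes called in modNAA there rested on replicate 2, as given below. With 1 coefficient per context, where differences between plasmids enter the spread, no gene was kept. The set of 6 was sensitive to the POT1-ccdB libraries: no gene was kept without POT1-ccdB replicate 1 and 3 were kept without replicate 2. DESeq2 called 8 genes the same way in all contexts, 2 of them among the 6, and library totals in place of TMM gave 6 genes, 3 of them among the 6. Over all reporters, each of the 6 kept its call in all 45 alternative fits.

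**Figure D2:**
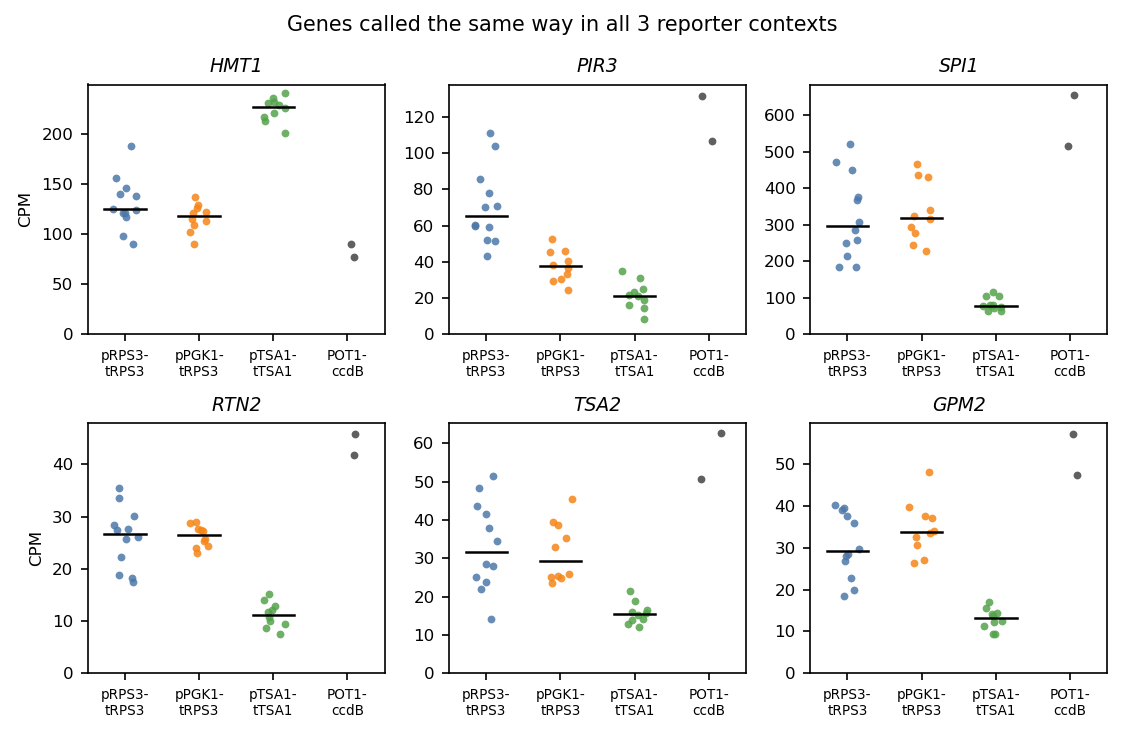
Points are the CPM of single libraries for the 6 genes that changed the same way in all contexts, in pRPS3-tRPS3, pPGK1-tRPS3, pTSA1-tTSA1 and POT1-ccdB, with a bar at the median of each reporter context. For RTN2 no reporter library exceeds 35.5 CPM while POT1-ccdB stands at 45.9 and 41.8 CPM, and for HMT1 the pTSA1-tTSA1 libraries stand apart at 200.7 to 241 CPM.

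The remaining 8 of the 14 genes called in pRPS3-tRPS3 were RKI1 (ribose-5-phosphate isomerase), which rose, and 7 genes that fell. HSP12 and HSP26 encode small heat shock proteins, ALD3 an aldehyde dehydrogenase, OM45 a mitochondrial outer membrane protein, TMA10 a ribosome-associated protein, CSR2 an arrestin-like ubiquitin ligase adaptor and PTR2 a peptide transporter. ALD3 had 51.4, 91.7 and 133 CPM in pRPS3-tRPS3, against 247 and 202 CPM in POT1-ccdB, and none of the 12 libraries reached the control plasmid. The ALD3 change in this context was −1.21 (SE 0.16, adjusted p 0.000194), and it was −0.26 in pPGK1-tRPS3 (adjusted p 0.318) and −1.86 in pTSA1-tTSA1 (adjusted p 4.34e-10). CSR2 changed by −1.30 in pRPS3-tRPS3 (adjusted p 0.0193), HSP26 by −1.03 (adjusted p 0.0126) and HSP12 by −0.98 (adjusted p 0.00695). HSP12 had a log2 fold change of −0.03 in pTSA1-tTSA1 (adjusted p 0.917), where its libraries ran from 607.5 to 944 CPM, against 939 and 673 CPM in POT1-ccdB. HSP12 thus lay nearer to the control plasmid in pTSA1-tTSA1 than in pRPS3-tRPS3. RKI1 changed by 0.63 in pRPS3-tRPS3 (adjusted p 0.0151) and by 0.29 in pPGK1-tRPS3 (adjusted p 0.116).

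General stress genes were lower in the reporter libraries as a group. Over all reporters 48 of 60 fell and 0 rose, with a median log2 fold change of −0.863, against −0.00767 over all genes tested and 7.45% of all genes lower. The other 12 did not pass the test, and all 60 estimates were negative, from −1.77 to −0.171. In pTSA1-tTSA1, 56 of 60 fell (median −1.87), where 19.5% of all genes fell. In pRPS3-tRPS3, 7 of 60 fell (median −0.539), where 0.233% of all genes fell, and in pPGK1-tRPS3, 11 of 60 fell (median −0.184), where 8.27% of all genes fell. All 60 estimates were negative in pRPS3-tRPS3 and in pTSA1-tTSA1, but in pPGK1-tRPS3, 43 were negative and 17 positive, up to 0.912. Without POT1-ccdB replicate 1, the stress genes that fell numbered 16 over all reporters, 48 in pTSA1-tTSA1, 0 in pRPS3-tRPS3 and 1 in pPGK1-tRPS3, and without replicate 2 they numbered 41, 55, 6 and 7 in the same order. In pRPS3-tRPS3 the count was 14 without modNNN replicate 4 of that context and 13 without either modNNN library of pPGK1-tRPS3. With library totals in place of TMM, 3 stress genes rose and 11 fell in pPGK1-tRPS3, with a median of −0.00827, so the direction of this list in that context depends on the scaling. In bulk RNA a lower level can mean less RNA per cell or fewer cells that express the gene, and these cannot be told apart. Of the upstream windows of these 60 genes, 91.7% held AGGGG and 70% held it at least 2 times, against 34.2% and 8.28% of all windows. The list is one whose members were collected for this kind of regulation, so that share describes the list and is not a result of the libraries.

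CTT1 (YGR088W), the cytosolic catalase, had 72.4, 113 and 172 CPM in pRPS3-tRPS3, 156, 188 and 276 CPM in pPGK1-tRPS3 and 31.9, 42.3 and 59.7 CPM in pTSA1-tTSA1, against 237 and 149.5 CPM in POT1-ccdB. Of the 3 contexts only pTSA1-tTSA1 stayed wholly below the control plasmid. TSL1 (YML100W), a subunit of the trehalose synthase complex, had 76.6, 216 and 387 CPM in pRPS3-tRPS3, 115, 167 and 202 CPM in pPGK1-tRPS3 and 32.7, 51.4 and 68.0 CPM in pTSA1-tTSA1, against 338 and 282 CPM in POT1-ccdB. The trehalose gene TSL1 changed by −1.39 (SE 0.25, adjusted p 0.000442) and CTT1 by −0.98 (SE 0.16, adjusted p 0.000127) over all reporters. GDB1, the glycogen debranching enzyme, changed by −1.53 over all reporters and CYC7, an isoform of cytochrome c, by −1.77. CYC7 (YEL039C) had 62.9, 132 and 172 CPM in pRPS3-tRPS3, 21.5, 107 and 144 CPM in pPGK1-tRPS3 and 10.4, 18.2 and 23.6 CPM in pTSA1-tTSA1, against 233.0 and 180.0 CPM in POT1-ccdB. Every reporter library was below both POT1-ccdB libraries for CYC7.

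Ribosome biogenesis genes moved the other way. Over all reporters 66 of 129 rose and 0 fell, with a median log2 fold change of 0.419, where 4.67% of all genes rose. In pTSA1-tTSA1, 112 of 129 rose (median 0.906), where 16.6% of all genes rose. In pPGK1-tRPS3, 7 rose and 6 fell (median 0.0966; 24 and 4 with library totals in place of TMM), where 4.28% of all genes rose, and in pRPS3-tRPS3, where 0.272% of all genes were called, none was called (median 0.276, with 125 of 129 estimates above 0). When POT1-ccdB replicate 1 was left out, 6 biogenesis genes rose over all reporters, 93 in pTSA1-tTSA1 and 0 in pPGK1-tRPS3, and without replicate 2 these counts were 25, 102 and 0. In pPGK1-tRPS3, 3 rose without modNAA replicate 2 or modHTH replicate 1, and 4 without modNTN replicate 2. Leaving pTSA1-tTSA1 out of the average left 0 biogenesis genes higher and 6 general stress genes lower. Of the 129 upstream windows, 90.7% held GATGAG on either strand, against 28.2% of all windows. The 4 biogenesis genes with the largest change were TSR1 (YDL060W), which acts in assembly of the small subunit, CIC1 (YHR052W) and REI1 (YBR267W), which act on the large subunit, and NAN1 (YPL126W), part of the small subunit processome. Their windows are shown with the PAC element in capitals, written as above.
TSR1: tcagttctgCTCATCtcatcacca
CIC1: ccactggagCTCATCgcaaatttt
REI1: taccgatgcGATGAGgtgaaaaaa
NAN1: tttcctagcGATGAGatgagatga
They lie on the plus strand of R64 at chrIV:341496-341519, chrVIII:210716-210739, chrII:739735-739758 and chrXVI:310080-310103, in that order. The distance to the start codon is 109, 118, 92 and 116 bases. TSR1 and NAN1 each hold a further overlapping match.

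TSR1 had 24.96, 32.9 and 53.5 CPM in pRPS3-tRPS3, 22.0, 32.6 and 51.1 CPM in pPGK1-tRPS3 and 43.0, 61.6 and 74.3 CPM in pTSA1-tTSA1, against 23.9 and 14.5 CPM in POT1-ccdB. The POT1-ccdB libraries sat near or below the bottom of the reporter range. TSR1 changed by 0.97 over all reporters (SE 0.19, adjusted p 0.000955), by 0.66 in pPGK1-tRPS3 (adjusted p 0.031) and by 1.55 in pTSA1-tTSA1 (adjusted p 4.92e-07). REI1 had 18.0, 23.4 and 35.7 CPM in pRPS3-tRPS3, 13.2, 21.9 and 30.7 CPM in pPGK1-tRPS3 and 53.5, 60.0 and 80.5 CPM in pTSA1-tTSA1, against 17.3 and 18.8 CPM in POT1-ccdB. For REI1 the lower end of pPGK1-tRPS3 lay below the control plasmid and pTSA1-tTSA1 stood wholly above it. REI1 changed by 0.25 in pPGK1-tRPS3 (adjusted p 0.449) and by 1.79 in pTSA1-tTSA1 (adjusted p 5.58e-08). CIC1 rose by 0.84 over all reporters (SE 0.17, adjusted p 0.00125), with 40.7 to 42.6 CPM in POT1-ccdB below every reporter library. NAN1 changed by 1.30 (SE 0.42, adjusted p 0.0428) but had few reads, with 1.96 to 10.7 CPM in the reporter libraries and 3.62 and 0.536 CPM in POT1-ccdB, and it lost its call in 12 of 43 alternative fits.

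Ribosomal protein genes had few calls over all reporters and more in single contexts. Of 81 large subunit genes tested, 6 rose over all reporters (7.41%, against 4.67% of all genes), 33 rose in pTSA1-tTSA1 (40.7%, against 16.6%), and 1 rose and 16 fell in pPGK1-tRPS3 (19.8% lower, against 8.27%). Of 56 small subunit genes, 4 rose over all reporters (7.14%), 27 rose in pTSA1-tTSA1 (48.2%) and 14 fell in pPGK1-tRPS3 (25%). None of either list was called in pRPS3-tRPS3, where 0.272% of all genes were. When either POT1-ccdB library was left out, at most 1 gene of each list was called over all reporters or in pPGK1-tRPS3. In pTSA1-tTSA1, 15 large and 10 small subunit genes rose without replicate 1, and 23 and 16 without replicate 2. Many of these genes have near-identical copies, so values of single members are uncertain. Scaling to library totals in place of TMM moved the median of all genes in pPGK1-tRPS3 to 0.188 and the share of higher genes among those called in that context to 71.3%, against 34.1% with TMM. With library totals, 11 large subunit genes rose and 15 fell and 3 small subunit genes rose and 11 fell in pPGK1-tRPS3, so the direction of small changes in that context depends on the scaling.

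**Figure D3:**
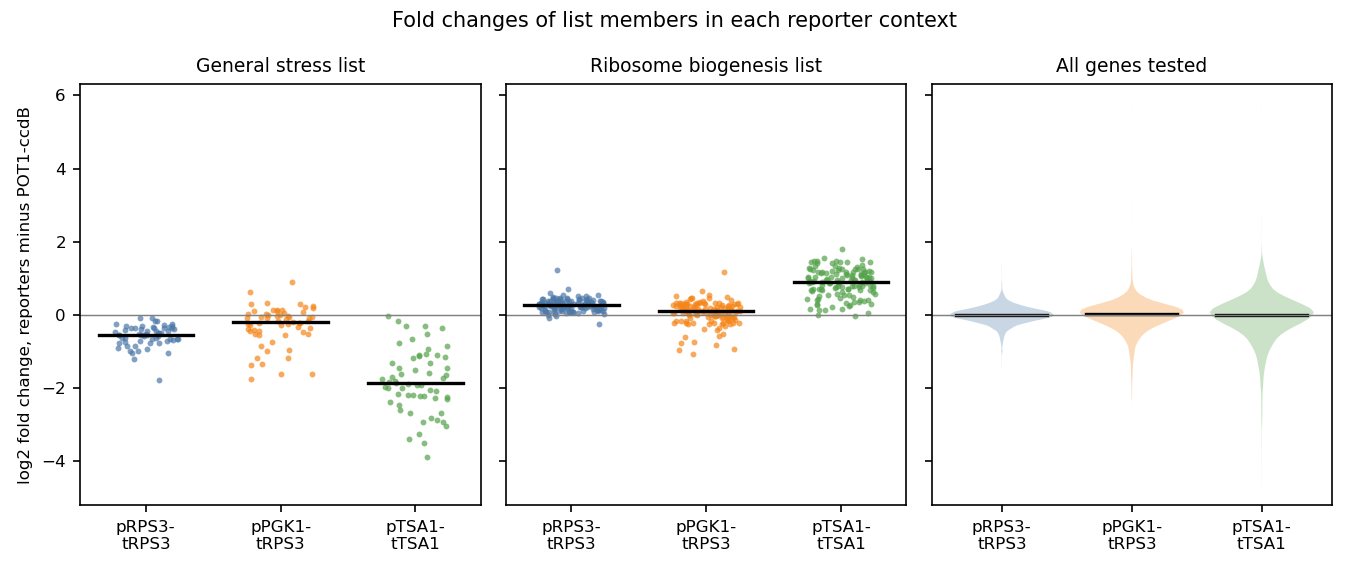
Points are the log2 fold changes (reporters over POT1-ccdB) of the 60 general stress genes and the 129 ribosome biogenesis genes in each context, beside a violin of all 5142 genes tested, with a black bar at each median. Stress medians lie at −0.539, −0.184 and −1.87 and biogenesis medians at 0.276, 0.0966 and 0.906 in pRPS3-tRPS3, pPGK1-tRPS3 and pTSA1-tTSA1.

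Zinc-responsive genes had the 4 largest increases over all reporters among called genes with the same sign in all contexts and a mean of at least 10 CPM. Of the zinc regulon, 7 of 21 members rose (33.3%, against 4.67% of all genes) and 2 fell (9.52%, against 7.45%) over all reporters, and the median log2 fold change of the list, −0.0384, was near that of all genes. These counts were 2 and 1 without POT1-ccdB replicate 1, and without replicate 2, 5 rose and 2 fell. Leaving pTSA1-tTSA1 out of the average left 3 that rose. ZPS1 (YOL154W), a cell surface protein, ADH4 (YGL256W), an alcohol dehydrogenase made in place of zinc-rich ADH1 when zinc is scarce, VEL1 (YGL258W), a zinc-responsive gene, and ZRT1 (YGL255W), the high-affinity zinc transporter, rose most. ZAP1, the activator itself, rose by 0.87 (SE 0.17, adjusted p 0.00126), and ZRT3 and ZRC1, which move zinc out of and into the vacuole, rose by 0.56 and 0.37. The members that fell were IZH4, at −1.25, and COS2, at −0.53; COS genes are near-identical copies of each other, and VEL1 has a close copy, YOR387C. Within pTSA1-tTSA1, 9 of the 21 members rose and 7 fell (median −0.268), where 16.6% of all genes rose and 19.5% fell. The list thus moved in both directions in that context. For pPGK1-tRPS3 the counts were 6 and 2 (10 and 1 with library totals in place of TMM), where 4.28% of all genes rose and 8.27% fell. No member was called in pRPS3-tRPS3, where 0.272% of all genes were. Among the 21 members, ZRT1 and ZRG17 hold the exact letters of the zinc-responsive element in the 500 bases upstream. That is 9.52% of the list, against 0.157% of all windows. The ZRT1 match lies 194 bases before the start codon at chrVII:20765-20793 (+) in R64 and is shown with the element in capitals.
ZRT1: acatatttgACCTTGAAGGTcatggaaag

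The zinc genes did not follow the context alone. ZPS1 had 427, 797 and 1125 CPM in pPGK1-tRPS3 and 130.1, 1015 and 1379 CPM in pTSA1-tTSA1, against 13.9 and 17.1 CPM in POT1-ccdB. The 20 libraries of these contexts all lay above the control plasmid, with log2 fold changes of 5.64 (SE 0.51, adjusted p 4.49e-08) and 5.77 (SE 0.51, adjusted p 8.27e-10). In pRPS3-tRPS3 the plasmids fell into separate levels. With modNNN, ZPS1 had 528, 294, 547 and 345 CPM, and with modNAA 291 and 351 CPM. With modHTH it had 15.7 and 21.3 CPM, with modNTN 18.2 and 7.38 CPM and with WT 14.02 and 11.1 CPM. The modNNN and modNAA libraries were thus all far above POT1-ccdB, and those of the other terminators were at its level. Against POT1-ccdB, ZPS1 changed by 4.80 in modNNN (SE 0.50, adjusted p 2.53e-06) and by 4.39 in modNAA (SE 0.52, adjusted p 3.06e-05), and by −0.28 in WT (adjusted p 0.965). Averaged over pRPS3-tRPS3 the change was 1.79 and did not pass (adjusted p 0.101).

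ADH4 and ZRT1 divided in the same places. In pRPS3-tRPS3, ADH4 had 229.7, 187, 262 and 200.3 CPM with modNNN and 187 and 203 CPM with modNAA, against 71.5 and 59.5 CPM in POT1-ccdB. With modHTH, modNTN and WT its 6 libraries ran from 68.1 to 91.4 CPM, near the control plasmid. ZRT1 had 1063, 739, 1231 and 1006 CPM with modNNN and 1149 and 910.4 CPM with modNAA, against 279.5 and 514 CPM in POT1-ccdB. With modHTH, modNTN and WT it ran from 239 to 404 CPM, within or below the POT1-ccdB values. Against POT1-ccdB, ADH4 changed by 1.73 in modNNN (adjusted p 0.00187) and 1.56 in modNAA (adjusted p 0.0445), and ZRT1 by 1.35 (adjusted p 0.00224) and 1.38 (adjusted p 0.0445). In pTSA1-tTSA1, WT replicate 1 was the lowest library for ZPS1 (130.1 CPM), ADH4 (97.2 CPM) and ZRT1 (1378 CPM), and its VEL1 level of 1.43 CPM was below both POT1-ccdB values of 4.45 and 2.14 CPM. Terminator and library batch cannot be told apart here, since the labels give no batch.

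Single plasmids also differed in how many genes were called against POT1-ccdB, and the plasmids were not tested against each other. When each plasmid was compared with POT1-ccdB on its own, modNNN of pRPS3-tRPS3 had 344 called genes (6.69%), 174 higher and 170 lower, with 38 general stress genes lower and 46 ribosome biogenesis genes higher. With modNAA, 28 genes (0.545%) were called, of which 6 were lower general stress genes and 3 were higher zinc genes. With WT, 2 genes (0.0389%) were called, and with modHTH and modNTN 0 were called by edgeR, with 167 and 188 genes at an unadjusted p under 0.05. The modNNN group had 4 libraries where the others had 2, which gives its comparison more power. The median log2 fold change of general stress genes, which does not depend on the number of calls, was −0.957 in modNNN, −0.691 in modNAA, −0.484 in WT, −0.323 in modNTN and −0.223 in modHTH, a graded series rather than separate levels. The median of ribosome biogenesis genes was 0.478 in modNNN, 0.396 in modNAA, 0.364 in WT, 0.121 in modNTN and 0.089 in modHTH, so WT lay beside modNAA here, unlike in the zinc genes. In pPGK1-tRPS3, WT had 202 called genes (3.93%), modNTN 94 (1.83%), modHTH 71 (1.38%) and modNNN 69 (1.34%). There modNAA had 1105 (21.5%), but this count rested on replicate 2: it was 41 (0.792%) without that library and 1235 (23.8%) without replicate 1. Replicate 2 of modNAA stood apart from the rest of its context, with a TMM factor of 1.311 against 1.014 to 1.142 and a second principal component of 33.4 against 0.459 to 16.1. In pTSA1-tTSA1 the 5 plasmids gave close counts of called genes, 1342 in modNTN (26.1%), 1313 in WT (25.5%), 1296 in modNNN (25.2%), 1293 in modNAA (25.1%) and 1132 in modHTH (22%), with 49 to 54 general stress genes lower and 94 to 111 ribosome biogenesis genes higher. These comparisons share the POT1-ccdB libraries.

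Several lists of glucose uptake and carbon use held more genes that fell than the share over all genes, which was 7.45% over all reporters, 8.27% in pPGK1-tRPS3 and 19.5% in pTSA1-tTSA1. Of 13 hexose transport genes, 6 fell (46.2%) and 1 rose over all reporters, and 8 fell in pTSA1-tTSA1 (61.5%). Over all reporters, 2 of them fell without POT1-ccdB replicate 1 and 5 without replicate 2. HXT6 (YDR343C), a high-affinity glucose transporter, had 44.9, 124 and 204 CPM in pRPS3-tRPS3, 69.4, 132 and 231 CPM in pPGK1-tRPS3 and 4.70, 8.58 and 13.6 CPM in pTSA1-tTSA1, against 281 and 179 CPM in POT1-ccdB. Only the pTSA1-tTSA1 libraries of HXT6 lay wholly below the control plasmid. HXT6 is nearly identical to HXT7, so reads of the pair may be split arbitrarily. HXT4 (YHR092C) had 298, 680.0 and 893 CPM in pRPS3-tRPS3, 291, 504 and 603 CPM in pPGK1-tRPS3 and 53.0, 75.7 and 117 CPM in pTSA1-tTSA1, against 996 and 980.5 CPM in POT1-ccdB. All 32 reporter libraries lay below both POT1-ccdB libraries for HXT4. Its log2 fold change was −1.76 over all reporters (SE 0.18, adjusted p 1.39e-07), −0.55 in pRPS3-tRPS3 (adjusted p 0.286), −1.07 in pPGK1-tRPS3 (adjusted p 0.00165) and −3.65 in pTSA1-tTSA1 (adjusted p 4.11e-14). The low-affinity transporter HXT1 was the member that rose, by 0.65 (SE 0.16, adjusted p 0.00656).

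RGI1 (YER067W), a gene induced in respiratory growth, and EGO4 (YNR034W-A) were far lower in pTSA1-tTSA1 than in the other contexts. RGI1 had 260, 469 and 753 CPM in pRPS3-tRPS3, 319, 696 and 1110 CPM in pPGK1-tRPS3 and 22.6, 36.4 and 71.6 CPM in pTSA1-tTSA1, against 820 and 612 CPM in POT1-ccdB. Only the pTSA1-tTSA1 libraries were separated from the control plasmid, at a log2 fold change of −4.29 (SE 0.18, adjusted p 1.52e-15), and the change in pPGK1-tRPS3 was −0.11 (adjusted p 0.774). EGO4 had 403, 737 and 1190 CPM in pRPS3-tRPS3, 495, 741.5 and 1414 CPM in pPGK1-tRPS3 and 40.6, 50.8 and 89.2 CPM in pTSA1-tTSA1, against 1249 and 1162 CPM in POT1-ccdB. The pTSA1-tTSA1 libraries stood alone for EGO4 too, with a change of −4.48 (SE 0.20, adjusted p 2.19e-15).

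Of 24 genes of glycolysis and fermentation, 8 fell over all reporters (33.3%), 13 in pPGK1-tRPS3 (54.2%; 9 genes with library totals in place of TMM) and 11 in pTSA1-tTSA1 (45.8%). In pPGK1-tRPS3 the count was 3 without POT1-ccdB replicate 1 and 2 without replicate 2, and over all reporters it was 4 and 7. ADH5 (YBR145W), a minor alcohol dehydrogenase, had 333, 396 and 525 CPM in pRPS3-tRPS3, 133, 325 and 394 CPM in pPGK1-tRPS3 and 29.3, 44.3 and 53.6 CPM in pTSA1-tTSA1, against 517 and 492 CPM in POT1-ccdB. Its pRPS3-tRPS3 range reached the control plasmid and the other contexts did not. TDH1 (YJL052W), a glyceraldehyde-3-phosphate dehydrogenase, had 1176, 1942 and 3063 CPM in pRPS3-tRPS3, 908, 1807 and 2560 CPM in pPGK1-tRPS3 and 337, 448 and 707 CPM in pTSA1-tTSA1, against 3287 and 2951 CPM in POT1-ccdB. The TDH1 change was −1.41 over all reporters (SE 0.17, adjusted p 1.38e-06). Of 37 respiratory chain genes, 13 fell over all reporters (35.1%) and 24 fell and 1 rose in pTSA1-tTSA1 (64.9% lower). Of 19 TCA cycle genes, 7 fell over all reporters (36.8%) and 10 in pTSA1-tTSA1 (52.6%), with 1 higher in each. Over all reporters, 2 respiratory chain genes and 1 TCA cycle gene fell without POT1-ccdB replicate 1, and 4 and 3 without replicate 2. In pTSA1-tTSA1 these counts were 16 and 6 without replicate 1, and 15 and 10 without replicate 2. Genes repressed by glucose (the carbon source derepressed list) were near the share of all genes over all reporters, with 2 of 29 lower (6.9%). In pTSA1-tTSA1, 14 of them fell (48.3%) and 1 rose, where leaving out POT1-ccdB replicate 1 left 6 lower, and in pPGK1-tRPS3, 1 fell and 2 rose. Over all reporters, hypoxic genes had 7 of 24 lower (29.2%), galactose genes 2 of 7 (28.6%) and the nitrogen catabolite repressed list 5 of 24 (20.8%), with none higher. These 3 lists had 3, 1 and 0 genes lower without POT1-ccdB replicate 1, and without replicate 2 they had 5, 1 and 2.

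**Figure D4:**
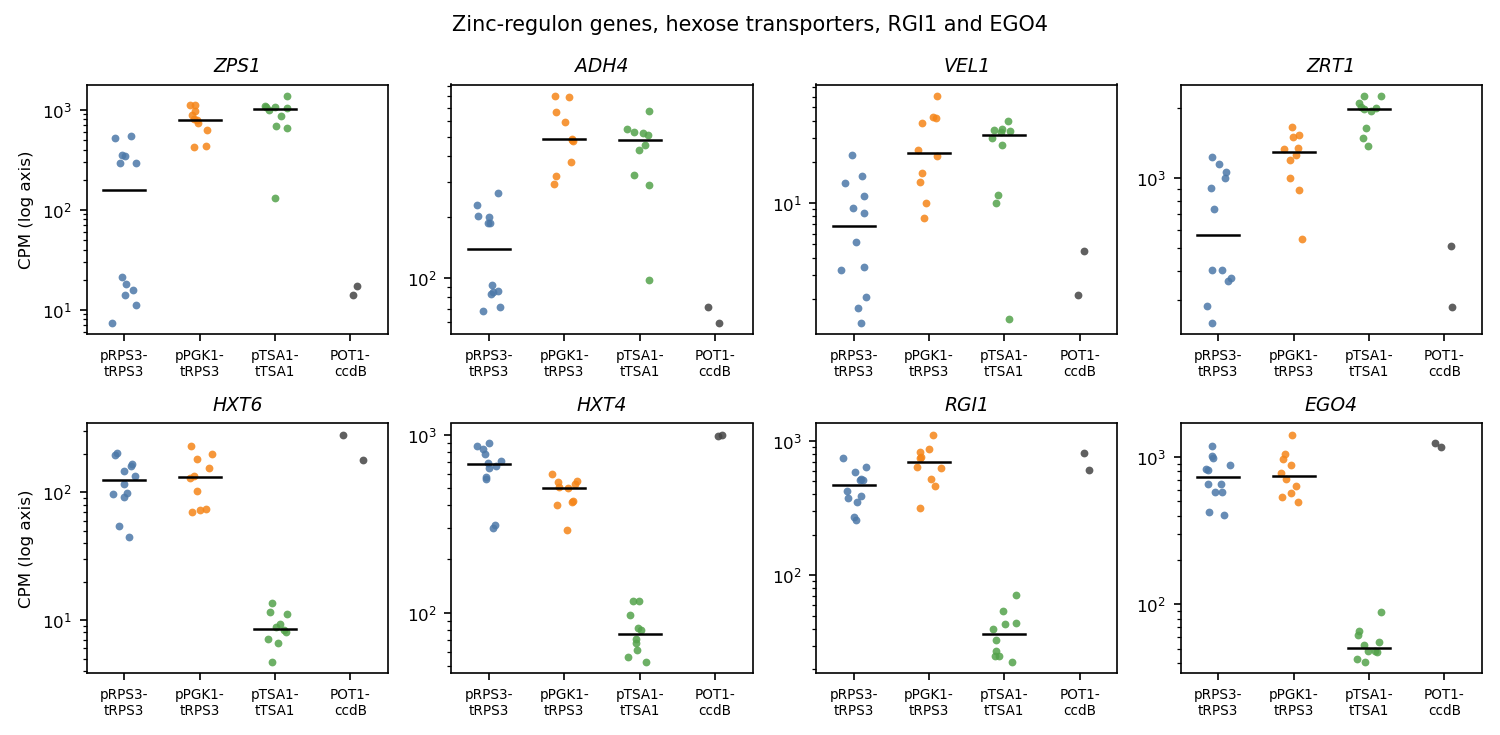
Points are the CPM of single libraries on a log axis for ZPS1, ADH4, VEL1, ZRT1, HXT6, HXT4, RGI1 and EGO4 in pRPS3-tRPS3, pPGK1-tRPS3, pTSA1-tTSA1 and POT1-ccdB. The pRPS3-tRPS3 libraries of ZPS1 form a low set near the POT1-ccdB values of 13.9 and 17.1 CPM and a high set from 291 to 547 CPM, while HXT6, HXT4, RGI1 and EGO4 are lowest in pTSA1-tTSA1.

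Among genes of amino acid and nucleotide synthesis the lists differed in how far they stood from the shares of all genes that fell, 7.45% over all reporters, 8.27% in pPGK1-tRPS3 and 19.5% in pTSA1-tTSA1. None was called in pRPS3-tRPS3, where 0.272% of all genes were. Of 28 sulfur amino acid genes, 9 fell over all reporters (32.1%), 9 in pPGK1-tRPS3 (32.1%; 6 genes with library totals in place of TMM) and 14 in pTSA1-tTSA1 (50%). These counts were 3, 4 and 13 without POT1-ccdB replicate 1, and without replicate 2 they were 6, 5 and 12. STR3 (YGL184C), a cystathionine beta-lyase, had 12.6, 22.1 and 33.3 CPM in pRPS3-tRPS3, 4.05, 10.7 and 23.0 CPM in pPGK1-tRPS3 and 0.671, 1.47 and 2.90 CPM in pTSA1-tTSA1, against 25.3 and 23.0 CPM in POT1-ccdB. The pRPS3-tRPS3 libraries of STR3 spanned the control plasmid, and the pTSA1-tTSA1 libraries lay at the level of a few reads. HIS4 (YCL030C), of histidine synthesis, had 437.5, 575 and 695 CPM in pRPS3-tRPS3, 229, 286 and 395 CPM in pPGK1-tRPS3 and 87.2, 122 and 148 CPM in pTSA1-tTSA1, against 639 and 639 CPM in POT1-ccdB. The 3 contexts did not overlap each other for HIS4, with log2 fold changes of −0.12 (pRPS3-tRPS3, adjusted p 0.858), −1.10 (pPGK1-tRPS3, adjusted p 1.75e-06) and −2.39 (pTSA1-tTSA1, adjusted p 2.14e-14).

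Of 24 purine synthesis genes, 9 fell over all reporters (37.5%), 8 fell in pPGK1-tRPS3 (33.3%; 4 genes with library totals in place of TMM) and 15 fell (62.5%) and 4 rose in pTSA1-tTSA1. The genes that fell were 5, 3 and 14 without POT1-ccdB replicate 1, and without replicate 2 they were 5, 2 and 12. ADE17 (YMR120C), which acts in the last steps of the pathway, had 241, 348 and 431 CPM in pRPS3-tRPS3, 174, 305 and 467 CPM in pPGK1-tRPS3 and 54.3, 69.6 and 74.2 CPM in pTSA1-tTSA1, against 368.5 and 343 CPM in POT1-ccdB. Only pTSA1-tTSA1 was apart from the control plasmid, with a change of −2.41 (SE 0.15, adjusted p 7.68e-13). Over all reporters, arginine synthesis had 4 of 10 genes lower (40%), lysine synthesis 3 of 9 (33.3%) and histidine synthesis 2 of 7 (28.6%). In pTSA1-tTSA1 these lists had 8, 5 and 3 genes lower. Branched chain amino acids had 2 of 12 lower and 1 higher and aromatic amino acids 2 of 15 lower and 1 higher over all reporters, and in pTSA1-tTSA1 they had 3 (25%) and 4 (26.7%) lower, not far from the share of all genes there. Over all reporters, leaving out POT1-ccdB replicate 1 left 3 genes lower in arginine synthesis, 1 in histidine synthesis and none in the lysine, branched chain and aromatic lists, and leaving out replicate 2 left 3, 1, 1, 0 and 0. In pTSA1-tTSA1 the branched chain and aromatic lists had 1 and 2 genes lower when either library was left out. Pyrimidine synthesis had 3 of 18 lower (16.7%) and none higher over all reporters, with a positive median of 0.137, and library totals in place of TMM or leaving out either POT1-ccdB library left 0 lower. In pTSA1-tTSA1, 8 pyrimidine genes rose (44.4%, against 16.6% of all genes) and 3 fell, and 2 rose without POT1-ccdB replicate 1 and 5 without replicate 2. The selectable marker URA3 of that pathway was left out. Its plasmid copy was listed at 0 counts in both POT1-ccdB libraries, although these cells are labelled as grown without uracil, and it had counts in every reporter library.

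Of 45 cell wall genes, 4 rose (8.89%, against 4.67% of all genes) and 10 fell (22.2%, against 7.45%) over all reporters. In pPGK1-tRPS3, 4 rose and 20 fell (44.4%, against 8.27%), where library totals in place of TMM gave 6 and 13. In pTSA1-tTSA1, 9 rose (20%, against 16.6%) and 11 fell (24.4%, against 19.5%), with a median of 0.042. Leaving out POT1-ccdB replicate 1 left 4 lower over all reporters, 4 lower in pPGK1-tRPS3 and 5 higher and 6 lower in pTSA1-tTSA1. Leaving out replicate 2 left 6 lower over all reporters and in pPGK1-tRPS3, and 6 higher and 10 lower in pTSA1-tTSA1. YGP1 (YNL160W), a secreted glycoprotein made as nutrients run out, had 433, 713 and 871 CPM in pRPS3-tRPS3, 330.2, 417 and 563 CPM in pPGK1-tRPS3 and 242, 299 and 383 CPM in pTSA1-tTSA1, against 1090.3 and 1020.1 CPM in POT1-ccdB. All reporter libraries lay below both POT1-ccdB libraries, and YGP1 changed by −1.24 over all reporters (SE 0.13, adjusted p 1.61e-07). MFA1 (YDR461W), which encodes the a-factor pheromone, had 553, 872 and 1065 CPM in pRPS3-tRPS3, 71.4, 293 and 433 CPM in pPGK1-tRPS3 and 387, 615 and 830.2 CPM in pTSA1-tTSA1, against 1271 and 1144 CPM in POT1-ccdB. All reporter libraries lay below both POT1-ccdB libraries for MFA1 as well, and the sum of the MATa markers, which include it, was given above. MFA1 and AGA2 (a-agglutinin, −0.67, adjusted p 0.00289) were the members of the mating list of 21 genes that fell over all reporters, and both were lowest in pPGK1-tRPS3. MFA1 fell by 2.18 on the log2 scale there (SE 0.23, adjusted p 6.91e-07).

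Heat shock chaperones moved in both directions over all reporters. Of 29, 5 rose (17.2%, against 4.67% of all genes), such as HSC82 at 0.40, and 8 fell (27.6%, against 7.45%), such as HSP30 at −1.13 and HSP104 at −1.05. Of them, 0 rose and 2 fell without POT1-ccdB replicate 1, and without replicate 2, 2 rose and 6 fell. Peroxide and thioredoxin genes had 5 of 30 lower (16.7%), CTT1 and TSA2 among them, and drug transport had 2 of 15 higher and 2 lower (13.3% each). When POT1-ccdB replicate 1 or 2 was left out, 2 or 3 peroxide genes were lower and no drug transport gene was called. The remaining lists were called at less than the 12.1% of all genes called in either direction over all reporters. By direction, the iron, phosphate, translation factor and DNA damage lists lay above the 4.67% of all genes that rose, by 1 to 3 called genes each. The iron regulon had 2 of 24 higher, the iron permease FTR1 at 0.88 (SE 0.17, adjusted p 0.00121) and its partner ferroxidase FET3 at 0.39 (SE 0.13, adjusted p 0.0457), though FET3 lost its call in 21 of 45 alternative fits. The phosphate regulon had 1 of 13 higher, translation factors 3 of 37 higher and 1 lower, mitochondrial ribosomal proteins 2 of 64 higher, the proteasome 1 of 34 higher and ergosterol synthesis 1 of 26 higher and 1 lower. DNA damage and ribonucleotide reductase genes had 1 of 13 higher. Some of these lists had more calls in pTSA1-tTSA1, where 16.6% of all genes rose. There 6 of 13 phosphate genes, 11 of 37 translation factors and 4 of 10 histone genes rose, and 1 phosphate gene and 1 translation factor fell. The proteasome, mitochondrial ribosome and tRNA synthetase lists had 2, 4 and 0 genes higher in that context. Of 10 histone genes and 19 tRNA synthetase genes none was called by edgeR over all reporters. Leaving out either POT1-ccdB library left 1 called gene in these lists together.

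The native genes that share promoter or terminator with the reporters were not called over all reporters. Reporters carry a copy of the RPS3 or TSA1 terminator, and how reads alike in both copies were assigned was not examined. RPS3 (YNL178W) had 1550, 1897 and 2520 CPM in pRPS3-tRPS3, 831, 1420 and 1816 CPM in pPGK1-tRPS3 and 1794, 2285 and 2436 CPM in pTSA1-tTSA1, against 1546 and 1627 CPM in POT1-ccdB. The POT1-ccdB values lay inside the range of pPGK1-tRPS3 and below that of pTSA1-tTSA1. The change of RPS3 was 0.17 over all reporters (adjusted p 0.439) and 0.49 in pTSA1-tTSA1 (adjusted p 0.00629). TSA1 (YML028W) changed by −0.07 over all reporters (adjusted p 0.679), by −0.38 in pPGK1-tRPS3 (adjusted p 0.00908) and by 0.26 in pTSA1-tTSA1 (adjusted p 0.04). PGK1 (YCR012W), a glycolytic enzyme, had 504, 1549 and 4163 CPM in pRPS3-tRPS3, 146, 387 and 875 CPM in pPGK1-tRPS3 and 278.5, 1237 and 4613 CPM in pTSA1-tTSA1, against 2303 and 1542 CPM in POT1-ccdB. It was lower in all pPGK1-tRPS3 libraries than in POT1-ccdB, at −2.24 (SE 0.61, adjusted p 0.0169). RPL25 (YOL127W), a large subunit ribosomal protein gene, and ARE1 (YCR048W), a sterol acyltransferase gene, were also lower there, both by −2.21, at adjusted p 0.0119 and 0.00857. These 3 genes varied far more between replicates than most, with pooled SDs within plasmids of 1.14 for PGK1, 1.08 for RPL25 and 0.98 for ARE1 on the log2 scale, against a median of 0.227 over genes. Plasmid by plasmid, each of the 3 was called in modNAA of pPGK1-tRPS3 only, though the estimates of the other plasmids of that context were negative too. The lowest library for each was modNAA replicate 2, described above as standing apart, with 35.35 CPM for RPL25 and 0.3304 CPM for ARE1, a level of few reads.

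A comparison without a model of the spread asked for how many genes both POT1-ccdB libraries lay outside the range of all 32 reporter libraries. This held for 56 genes (1.09%), with reporters above POT1-ccdB in 26 (0.506%) and below it in 30 (0.583%). With 2 libraries against 32 there are 561 choices of 2 libraries, and the smallest p of the 2-sided exact permutation test is 0.00178. All choices count alike, although both POT1-ccdB libraries are of 1 plasmid and most other choices mix 2 plasmids. A small p can thus come from any trait of 1 plasmid, and it does not measure the spread between plasmids. Of the genes tested, 20 reached it and 394 had p under 0.05, and after adjustment over all genes the smallest p was 0.458, so none passed. Of the 623 genes called by edgeR over all reporters, 244 had an unadjusted permutation p under 0.05. None of the genes called the same way in all contexts reached the smallest p. Among the 20, chosen after their values were seen, PRY1 (YJL079C), a secreted sterol-binding protein, had 241, 360 and 539 CPM in pRPS3-tRPS3, 188, 249 and 306 CPM in pPGK1-tRPS3 and 124, 145 and 197 CPM in pTSA1-tTSA1, against 588 and 573 CPM in POT1-ccdB. RSR1 (YGR152C), the GTPase of bud site selection, had 2.08 to 8.59 CPM in the reporter libraries, against 1.67 and 1.61 CPM in POT1-ccdB. For OAZ1 (YPL052W), the ornithine decarboxylase antizyme, the values were 15.2 to 37.3 CPM in the reporter libraries and 13.1 and 14.5 CPM in POT1-ccdB. That no reporter library crossed the gap for these genes follows from how they were chosen.

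**Figure D5:**
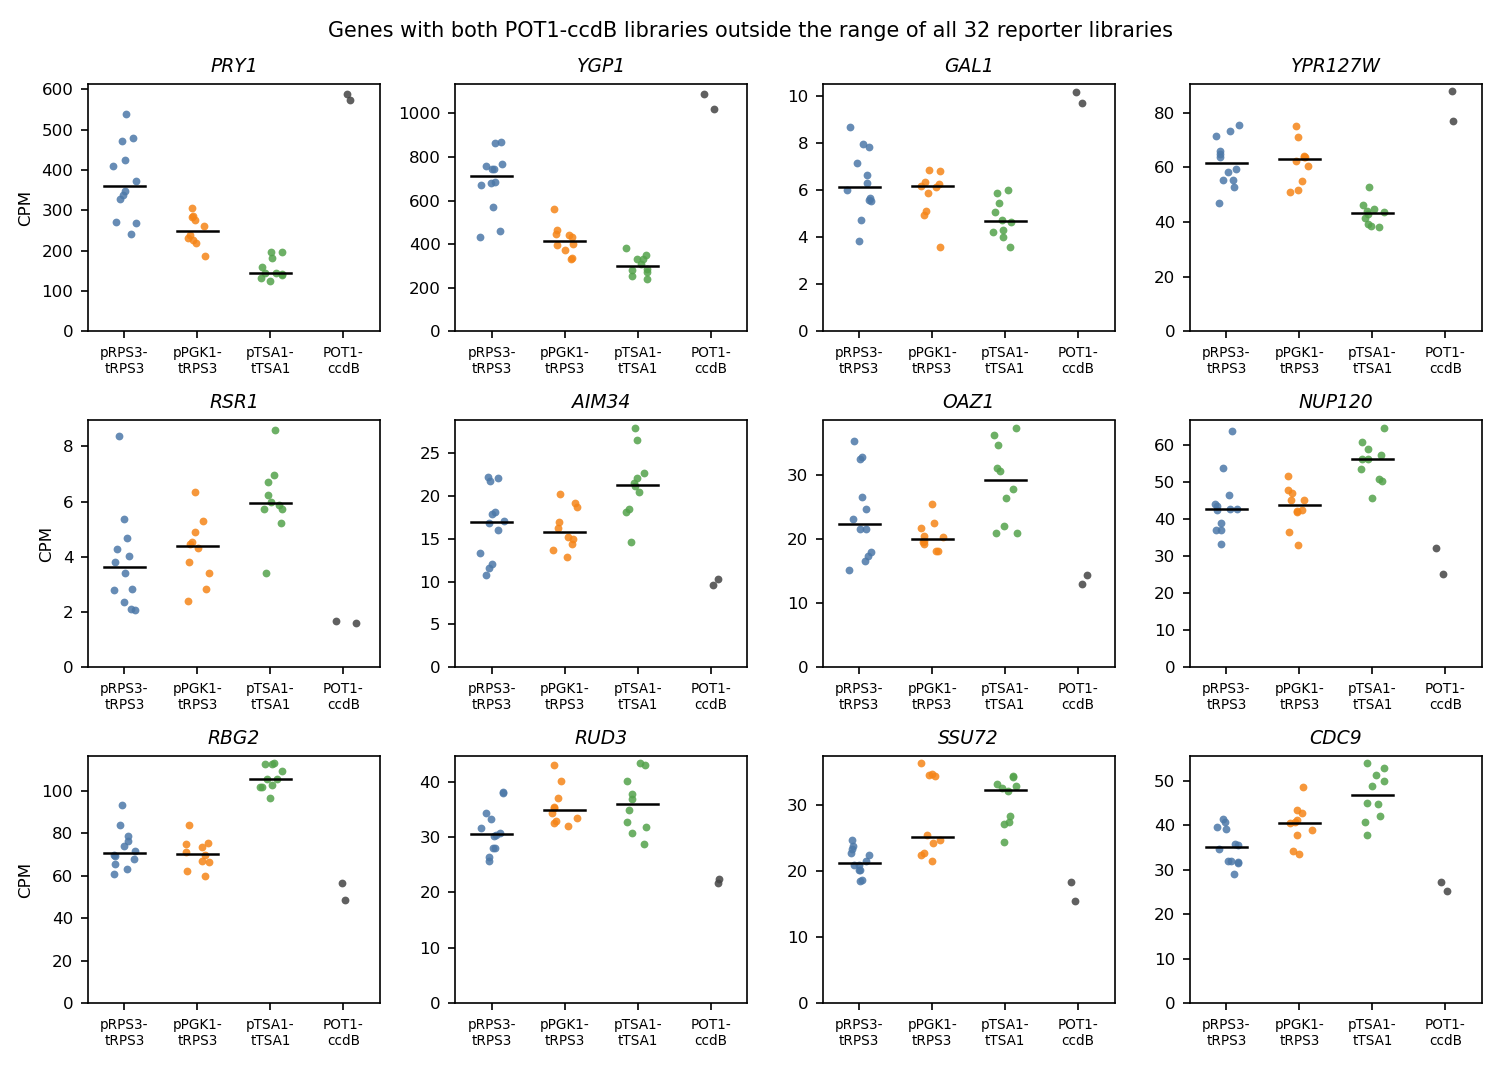
Points are the CPM of single libraries for 12 of the 20 genes at the smallest permutation p, in pRPS3-tRPS3, pPGK1-tRPS3, pTSA1-tTSA1 and POT1-ccdB. PRY1, YGP1, GAL1 and YPR127W are lower in every reporter library than in POT1-ccdB and the other 8 genes are higher, and the gap is narrow for several, as for OAZ1 between 14.5 CPM in POT1-ccdB and 15.2 CPM in the lowest reporter library.

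The places at which native transcripts ended were compared as well, from the deposited counts of 3′ ends by position, which describe the same libraries as the gene counts. The limit on reads of a copied terminator holds here too for RPS3 and TSA1. For each gene, the percentage of 3′ ends at each position after the stop codon was compared between libraries by the total variation distance, which is 0% for the same profile. For RPS3 the mean distance was 7.43% between reporter and POT1-ccdB libraries, 8.24% among reporter libraries and 5.20% between the POT1-ccdB libraries. For TSA1 these distances were 6.84%, 7.25% and 4.79%, and for PGK1 they were 12.2%, 15.4% and 6.11%. By these values POT1-ccdB was no farther from the reporters than the reporters were from each other. The 1-sided exact permutation tests over 561 choices gave p of 0.763, 0.701 and 0.993 (adjusted p 0.993 for each of the 3 genes). These tests too count choices within and between plasmids alike. The most used end of RPS3 was 63 nt after the stop codon, with 16.9, 20.6 and 24.7% of ends in the reporter libraries (lowest, median and highest) and 19.8 and 19.3% in POT1-ccdB. At the main end of TSA1, 106 nt after the stop codon, these were 35.4, 39.1 and 42.1% in the reporter libraries and 37.6 and 37.1% in POT1-ccdB. For PGK1 the main end lay 158 nt after the stop codon, with 34.3, 41.5 and 58.2% in the reporter libraries and 43.5 and 39.4% in POT1-ccdB. The fewest ends behind a profile were 157, in a reporter library for PGK1, against 7751 and 2706 ends in POT1-ccdB. Depth was not made equal, and this distance grows as ends become fewer. The tests therefore cannot tell whether POT1-ccdB profiles were close to those of the reporters or only better sampled than some of them.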

How the data were processed

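Total RNA of yeast was sequenced from the 3′ ends of transcripts with QuantSeq REV, as the labels' protocols say. The authors deposited read counts per gene without normalization, and counts of 3′ ends at each position after the stop codon of native genes. FastQC, cutadapt, HISAT2, featureCounts, bedtools, MultiQC, SAMtools and the builds sacCer3 and R64 are named in the submitters' processing notes, without versions or roles. The transcript annotation was written with rtracklayer 1.42.1, per the file headers. All 4672 of its transcripts that matched a RefSeq coding region hold the whole R64 coding region, so R64 was used for sequences.

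Of 5698 features, 2 plasmid features and YEL021W (URA3) were left out, which left 5695 host features, and 5549 of these matched a RefSeq locus tag. In R 4.3.3, edgeR 4.0.16 with limma 3.58.1 was used to fit the counts, with TMM scaling, filterByExpr by plasmid group and 1 coefficient for each of 16 plasmids over all 34 libraries. Contrasts were the mean of 15 (all) or 5 (context) reporter plasmids minus POT1-ccdB. Genes were adjusted by Benjamini-Hochberg over the 5142 tested and called at 0.05. Gene lists are described by counts and medians only. Upstream windows are the 500 bases before the start codon. The permutation test used log2(CPM + 1), and 3′-end profiles needed at least 50 ends. Library totals of 1013603 to 3849179 counts leave genes near 1 CPM resting on a few reads, and the tables hold no molecular identifiers. Replicates of a plasmid differed beyond counting noise in all pairs (chi-square per degree of freedom 2.07 to 24.9), so none were merged.

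The fit was tested on simulated data before use. The comparison, members and gene lists were chosen with earlier results of these data known. Genes named are those with the largest change: at a mean of at least 10 CPM, up to 12 in each direction among genes called the same way in all 3 contexts and 3 in each direction per context, at any level up to 4 called members per list, plus the native genes and strain markers. After the values were seen, the single-plasmid comparisons and up to 12 genes in each direction among those called over all reporters with 1 sign in all contexts were added, as were the counts of every list under other scalings and without each POT1-ccdB library, and the count for the modNAA plasmid of pPGK1-tRPS3 without each of its libraries. HSP12, OM45, TMA10, PTR2, IZH4, COS2, ZRT3, ZRC1, HXT1, TSL1, HSC82, PRY1, RSR1, OAZ1 and the other plotted genes outside this rule were likewise named after their values were seen. Alternatives were DESeq2 1.42.0, library totals, RLE scaling, other filters, fewer groups in the fit, a replicate block, a residual component as covariate, 1 coefficient per context, each library left out and each context left out of the average.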

Additional observations from a re-analysis of the deposited data

Results flagged for a closer look

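Single libraries stood away from the rest of their group in 13 of 219 groups of 4 to 10 libraries tested, by Dixon's criterion, which chance meets in about 1 group in 20. In pRPS3-tRPS3 modNNN, replicate 4 was highest for SPI1 (369.0 CPM) and ADH5 (502.1 CPM) and lowest for TRM11 (28.01 CPM), and replicate 2 was highest for STF1 (110.0 CPM). In pPGK1-tRPS3, WT replicate 2 was highest for TSR1 (51.09 CPM) and lowest for RPS9B (3609 CPM), WT replicate 1 was highest for IPI1 (41.57 CPM), modNNN replicate 1 was highest for CTT1 (276.1 CPM) and modNAA replicate 2 was lowest for RPS29A (905.7 CPM). In pTSA1-tTSA1, modNAA replicate 2 was highest for MET28 (6.442 CPM) and lowest for RPL18B (236.9 CPM), modHTH replicate 2 was highest for EGO4 (89.2 CPM) and modNTN replicate 2 was highest for RPS29A (1707 CPM).

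The 6 genes called the same way in all contexts did not change to the same extent. The test of the 3 contexts against each other gave an adjusted p (edgeR) of 6.32e-13 for HMT1, 4.14e-11 for GPM2, 1.81e-11 for RTN2, 6.15e-09 for TSA2, 3.55e-14 for SPI1 and 4.34e-13 for PIR3. Of the other 67 named genes, 66 differed between contexts at an adjusted p under 0.05, and NAN1 did not pass (adjusted p 0.295).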

How the results depend on the processing

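Counts of called genes are given for all reporters, pRPS3-tRPS3, pPGK1-tRPS3 and pTSA1-tTSA1, then for the genes called the same way in all 3 contexts (623, 14, 645, 1855 and 6 as reported). A log2 fold change of at least 1 as a further condition left 75, 3, 146, 491 and 0. The residual component as covariate gave 1013, 101, 1092, 2195 and 50 (48 of them differing between contexts). A single coefficient per context gave 484, 1, 487, 1772 and 0 (0 differing between contexts). Only the compared groups in the fit gave 47, 370 and 1871 in the contexts and 16 the same way. The labels do not say whether equal replicate numbers pair the libraries. Of 120 correlations of same-numbered deviations, 41 were over 0.1 and 23 under −0.1 (median 0.0235, from −0.38 to 0.578). The replicate block gave 721, 24, 795, 1939 and 12 (12 differing between contexts). DESeq2 gave 490, 21, 449, 1598 and 8, and library totals gave 519, 14, 920, 1696 and 6. Without pRPS3-tRPS3, pPGK1-tRPS3 or pTSA1-tTSA1 in the average, 1099, 945 and 47 genes were called. Called over all reporters with 1 sign in all contexts, whatever the call in each, were 558. Leaving out each library in turn gave 110 to 696, 0 to 31, 88 to 851, 1028 to 1944 and 0 to 13 (0 to 13 differing between contexts), and the lowest values came from the POT1-ccdB libraries. With 1 POT1-ccdB library the lone library is assumed to vary like the other groups. General stress genes lower over all reporters ran from 6 to 56 and biogenesis genes higher from 0 to 94, both lowest without pTSA1-tTSA1. Of 3271 alternative values of named genes, 3014 kept direction and call, 247 no longer passed, 7 came to pass and 3 changed sign: RPL25 at 0.04659 and TSA1 at 0.08465 without pPGK1-tRPS3 in the average, and TSA1 at 0.01834 without POT1-ccdB replicate 2 (−0.1513 without replicate 1). For 3′ ends merged within 10 nt or with at least 200 ends, the lowest adjusted p was 0.925 and 0.998. The test between contexts was not run with DESeq2 or with only the compared groups. The causes were not tested. Depth limits genes near 1 CPM, which rest on a few reads.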
